A study of Mus musculus with 8 samples.

Results

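Transient microRNAs (miRNAs) of early embryoid body (EB) differentiation were sought by setting days 1 and 2 against days 0 and 4. The comparison used all 8 small RNA libraries of the series: the 4 libraries of the middle days (1 and 2) against the 4 libraries of the end days (0 and 4), with doxycycline (Dox) treatment as a covariate. Of the 1099 mature miRNAs listed, 839 were tested, those that reached a value of 1 in 2 or more libraries. A miRNA was called a peak or a dip when the middle days differed in the same direction from day 0 and from day 4, at an adjusted p under 0.05. That call was made for 13 of the 839 (1.55%): 9 peaks (1.07%) and 4 dips (0.477%).

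The peaks were 4 members of the let-7 family (let-7a-5p, let-7c-5p, let-7f-5p and let-7g-5p), miR-429-3p, miR-182-3p, miR-145a-5p, miR-128-1-5p and miR-5099. The dips were miR-378a-3p, miR-378c and miR-378d of the miR-378 family, and miR-411-5p of the imprinted Dlk1-Dio3 region. The size of these differences ran from 0.94 to 2.83 on the log2 scale for peaks, and from -1.45 to -1.04 for dips.

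All libraries came from mouse embryonic stem cells of the KH2 line carrying the KH2-DGCR8 genotype, sampled at day 0, 1, 2 or 4 of EB differentiation, each without Dox or with Dox. KH2 cells are built so that Dox switches on an inserted transgene, here DGCR8, which pairs with DROSHA in the Microprocessor, the complex that cuts primary miRNA transcripts into hairpins. Every condition had 1 library, so no value has a replicate of its own condition. Libraries without Dox carried the same genotype as those with it, the groups come from a single engineered line, and the length of Dox exposure is not known here. The labels do not say whether cultures were separate either, so p-values cannot be taken to measure the spread between cultures. With day and treatment in the model, the residual spread is how the Dox difference varies between days. For most miRNAs it was replaced by a trend over all miRNAs. The DGCR8 messenger RNA is not measured by small RNA libraries, so its induction could not be checked.

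A mature miRNA guides a silencing complex to messenger RNAs that pair with its seed, bases 2 to 8 from its 5′ end. In pluripotent cells the miR-290 cluster is abundant, while maturation of let-7 is held back by LIN28, and let-7 miRNAs are known for accumulating as cells differentiate. EBs are clumps of cells grown in suspension, in which pluripotency is lost and germ layers begin to form. Each hairpin can yield a miRNA from its 5′ arm (5p) and from its 3′ arm (3p), usually at unequal levels.

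The mature sequences that the results turn on are given here 5′ to 3′, with the seed in capitals, from RefSeq on build GRCm38.p6. The let-7 members are shown because 9 tested members shared the seed GAGGUAG and differ only at a few bases outside it.
let-7a-5p: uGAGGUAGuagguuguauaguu
let-7c-5p: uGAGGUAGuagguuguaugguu
let-7f-5p: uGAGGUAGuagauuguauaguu
let-7g-5p: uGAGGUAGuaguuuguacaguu
let-7b-5p: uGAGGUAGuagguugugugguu
let-7e-5p: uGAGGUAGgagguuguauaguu
let-7i-5p: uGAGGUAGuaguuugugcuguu
With let-7a-5p as the reference and positions counted from 1 at the 5′ end, let-7c-5p carried A19G, let-7f-5p G12A, let-7g-5p G12U and U18C, let-7b-5p A17G and A19G, let-7e-5p U9G, and let-7i-5p G12U, A17G, U18C and A19U. No change fell in the seed.

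The other sequences, except that of miR-378d, are shown because the arms of a hairpin, or members with the same seed, gave different results. miR-429-3p and miR-200b-3p share the seed AAUACUG, whereas the arms of miR-182, miR-128 and miR-411 have unrelated seeds.
miR-429-3p: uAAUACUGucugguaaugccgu
miR-200b-3p: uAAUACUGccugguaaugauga
miR-182-3p: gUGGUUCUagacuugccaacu
miR-182-5p: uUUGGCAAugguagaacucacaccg
miR-128-1-5p: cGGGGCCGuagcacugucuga
miR-128-3p: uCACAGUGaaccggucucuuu
miR-411-5p: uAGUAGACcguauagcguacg
miR-411-3p: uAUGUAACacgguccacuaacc
miR-378d: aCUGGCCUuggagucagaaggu
miR-378d is shown because its seed, CUGGCCU, differs from that of miR-378c, CUGGACU, although both were dips.

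The deposited values are whole numbers that sum to between 999965 and 1000047 per library and are taken as RPM, reads of miRNAs scaled to the same fixed total in each library. They rested on at least 362483 to 541342 reads per library, so that 3 reads corresponded to 5.54 to 8.28 RPM, and values at or below that level are imprecise. Between 630 and 751 miRNAs were above 0 in a library. The miR-290 cluster, the mark of pluripotent cells, summed to 360750 to 414525 RPM in the middle libraries and 162740 to 460852 RPM in the end libraries, with the lowest sums at day 4. The miR-302 cluster, known from the epiblast, summed to 743 to 2344 RPM in the middle and 329 to 35789 RPM at the ends, with the highest sum at day 4 without Dox.

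Across all miRNAs tested, the middle days stood above both ends for 263 miRNAs, below both for 144 and between the ends for 432. Differences are on the log2(RPM + 1) scale, on which the change of weakly detected miRNAs is understated, and are given with their standard error (SE). The median difference over all 839 was 0.10 against the mean of the ends, 0.40 against day 0 and -0.20 against day 4. Those medians became 0.02, 0.12 and -0.02 when libraries were scaled by median-of-ratios size factors, and 0.24, 0.40 and 0.13 when scaled to the total outside the miR-290 cluster.

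Against the mean of the ends, 73 miRNAs (8.70%) passed limma's test, 48 higher (5.72%) and 25 lower (2.98%), and 174 did so at an unadjusted p under 0.05. With median-of-ratios scaling the split was 33 higher and 35 lower. This contrast alone does not single out a transient miRNA, as miR-293-3p of the miR-290 cluster shows. It stood at 116591 RPM without Dox and 109875 RPM with Dox at day 0, between 105909 and 110999 RPM in the middle libraries, and at 44466 and 59319 RPM at day 4. It was called against the mean of the ends (0.50, SE 0.15, limma adjusted p = 0.0106) although it lay -0.07 from day 0. Of the 73 calls, 62 had the same sign against both ends and 11 lay between them. Taken singly, 121 miRNAs were higher (14.4%) and 13 lower (1.55%) in the middle than at day 0, and 56 were higher (6.67%) and 102 lower (12.2%) than at day 4.

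**Figure D1:**
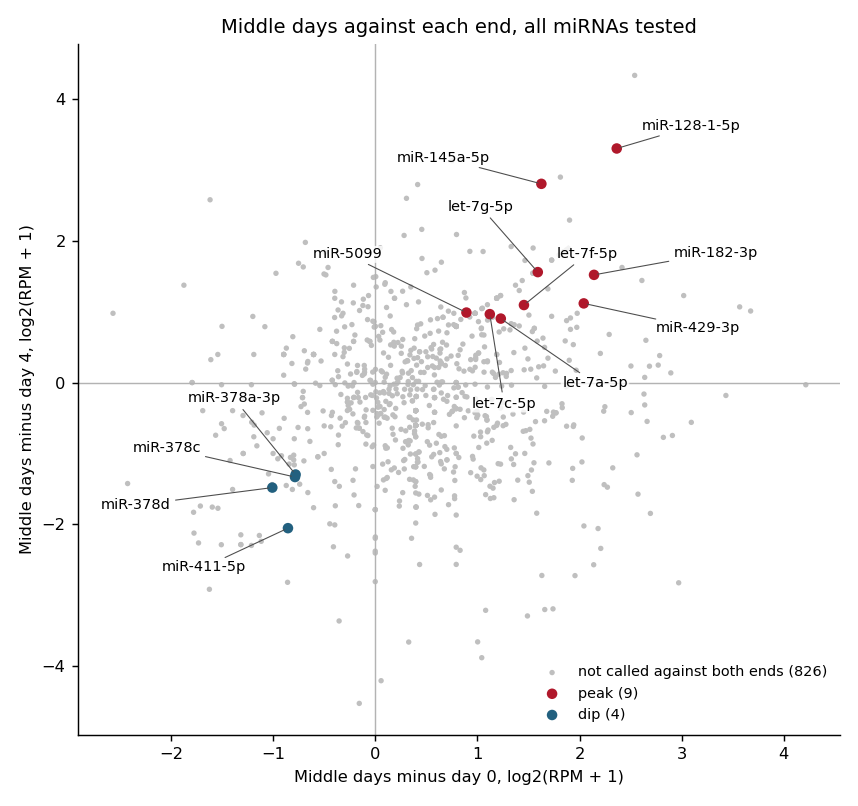
Each point is 1 of the 839 miRNAs tested, with the middle days minus day 0 on the horizontal axis and minus day 4 on the vertical axis, both as differences of log2(RPM + 1). The 9 peaks lie at the upper right and the 4 dips at the lower left, among uncalled miRNAs that differ as much from 1 end only.

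The both-ends call took the larger of the 2 end p-values. At an unadjusted p under 0.05 it held for 46 miRNAs. The call nearest the threshold was miR-128-1-5p (limma adjusted p = 0.0489), and the nearest miRNA outside it was miR-290a-3p (0.0535), at 44 and 22 RPM at day 0, 153, 98, 66 and 60 RPM in the middle and 28 and 24 RPM at day 4. For 8 of the 9 peaks the 4 middle libraries all lay above the 4 end libraries, as did those of 31 of the 839 (3.69%). For 4 of the 4 dips they all lay below, as did those of 13 of the 839 (1.55%). Each of the 52 ratios of the pooled middle reads to an end library of the same treatment had a 95% exact conditional binomial interval on the side of its call. These intervals cover counting error only. Both they and the counts of libraries that do not overlap come from the libraries that picked the 13, so they add no support to the calls.

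let-7 miRNAs, which repress Lin28a, Hmga2 and cell cycle genes, made up the largest group of peaks. let-7g-5p stood at 196 and 183 RPM at day 0 (without and with Dox, the order used throughout), 685 and 643 RPM at day 1, 472 and 517 RPM at day 2, and 174 and 216 RPM at day 4. The lowest middle library was thus well above the highest end library, and days 0 and 4 covered nearly the same range. The difference was 1.57 (SE 0.24) against the mean of the ends, 1.59 against day 0 and 1.56 against day 4 (limma adjusted p = 1.84e-04 for both ends). Mirlet7g lies at chr9:106178840-106178927 on the plus strand, in an intron of Wdr82.

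let-7f-5p stood at 145 and 169 RPM at day 0, 489 and 440 RPM at day 1, 465 and 345 RPM at day 2, and 188 and 216 RPM at day 4. Its middle libraries were all above its end libraries, and the difference was 1.27 (SE 0.25, limma adjusted p = 0.0314 for both ends). let-7a-5p stood at 548 and 547 RPM at day 0, 1358 and 1251 RPM at day 1, 1338 and 1198 RPM at day 2, and 808 and 584 RPM at day 4. Its middle libraries did not overlap the ends either, with a difference of 1.07 (SE 0.21, limma adjusted p = 0.0314 for both ends). The day 4 library without Dox was the highest of the ends.

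let-7c-5p, which differs from let-7a-5p at 1 base, stood at 448 and 435 RPM at day 0, 994 and 933 RPM at day 1, 932 and 989 RPM at day 2, and 621 and 390 RPM at day 4. Its 4 middle libraries spanned only 932 to 994 RPM, above all of the ends, and the difference was 1.04 (SE 0.22, limma adjusted p = 0.0255 for both ends). These hairpins lie on several chromosomes. Mirlet7a-1 (chr13:48538179-48538272) and Mirlet7f-1 (chr13:48537829-48537917) lie on the minus strand within exons of the long noncoding RNA 6720427I07Rik. Mirlet7f-2 lies in an intron of Huwe1 (chrX:151912346-151912428), Mirlet7c-2 in an exon of Lncppara (chr15:85706603-85706697) and Mirlet7c-1 in an intron of Mir99ahg (chr16:77599657-77599750), all on the plus strand. The 1 tested neighbour of Mirlet7c-1 within 10000 bp, miR-99a-5p, was lower against the mean of the ends (-1.68, SE 0.41, limma adjusted p = 0.00147). It stood at 32 and 44 RPM at day 0, 11, 39, 12 and 15 RPM in the middle, and 63 and 109 RPM at day 4. Of the 2 tested neighbours of Mirlet7c-2, 1 was higher and 0 lower.

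The other members with the let-7 seed were less uniform. let-7b-5p stood at 407 and 372 RPM at day 0, between 745 and 815 RPM in the middle, and at 549 and 340 RPM at day 4. It was called against the mean of the ends (0.93, SE 0.22, limma adjusted p = 0.00104) but not against both (0.0957). let-7e-5p stood at 46 and 82 RPM at day 0, 322, 265, 218 and 191 RPM in the middle, and 188 and 107 RPM at day 4. Its day 2 library with Dox and its day 4 library without Dox nearly met, and it too was called against the mean of the ends (1.38, SE 0.28, limma adjusted p = 7.53e-05) but not against both (0.767).

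let-7i-5p was low only at day 0, with 44 and 57 RPM there, 104 to 123 RPM in the middle and 94 and 126 RPM at day 4, and was not called (0.62, SE 0.32, limma adjusted p = 0.237). let-7d-5p (1.07, limma adjusted p = 0.184) and miR-98-5p (2.32, limma adjusted p = 0.0325) rested on few reads, at 7 to 42 and 0 to 22 RPM. Over the 9 miRNAs with the let-7 seed, 7 were higher against the mean of the ends and none lower, beside 5.72% higher and 2.98% lower of all miRNAs tested, and the median was 1.07 beside 0.10. The let-7 list of 17 tested names, 3p arms included, had a median of 0.93, with 0.81 under median-of-ratios scaling and 1.10 when scaled outside the miR-290 cluster. Its summed level was 4374 to 4950 RPM in the middle libraries and 1900 to 2739 RPM in the end libraries.

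Members that differ by 1 or 2 bases can share reads, and the labels do not say how such reads were assigned. The let-7 members are therefore not independent counts. With 1 library left out, let-7a-5p, let-7c-5p and let-7f-5p each kept the both-ends call in 1 of 8 fits, and let-7g-5p in 5. By limma-voom on the reads, let-7a-5p and let-7f-5p were no longer called against both ends (limma-voom adjusted p = 0.0510 and 0.0519). The 3p arms of let-7 hairpins were between 0 and 15 RPM in every library and none was called. Among these, let-7a-1-3p and let-7c-2-3p had identical values in all 8 libraries.

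**Figure D2:**
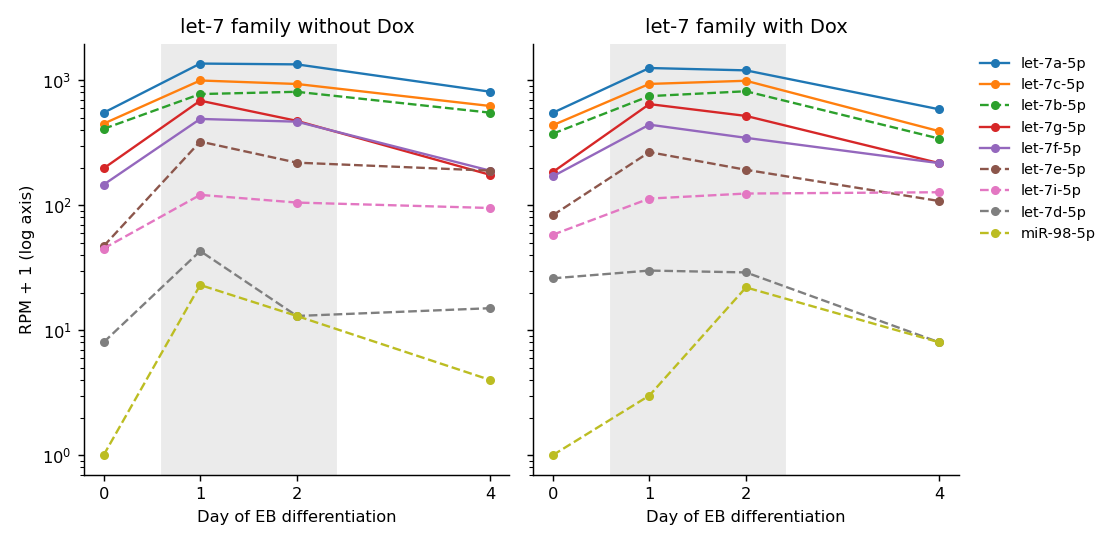
RPM + 1 on a log axis against day for the 9 miRNAs with the let-7 seed, without Dox on the left and with Dox on the right, with days 1 and 2 shaded. Solid lines mark the 4 members called against both ends, dashed lines the others, and let-7i-5p is the member whose day 4 values (94 and 126 RPM) lie just below and just above the range of its middle values (104 to 123 RPM).

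miR-429-3p belongs to the miR-200 family, which represses Zeb1 and Zeb2 and maintains epithelial identity. It stood at 461 and 391 RPM at day 0, 1961 and 1333 RPM at day 1, 2197 and 1634 RPM at day 2, and 1043 and 624 RPM at day 4. The middle libraries were all above the ends, day 2 was the highest day in both treatments, and day 4 was above day 0. The difference was 1.58 (SE 0.21) against the mean of the ends, 2.04 against day 0 and 1.12 against day 4 (limma adjusted p = 0.00450 for both ends).

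The rest of the miR-200 family did not pass the test. miR-200b-3p, with the same seed and from the same cluster, stood at 4307 and 4267 RPM at day 0, 5298, 4554, 3881 and 3182 RPM in the middle, and 5562 and 2978 RPM at day 4. Its middle libraries lay within the range of its ends (-0.01, SE 0.18, limma adjusted p = 0.994). miR-200a-3p of the same cluster (0.05, SE 0.19, limma adjusted p = 0.932) and miR-200c-3p from another cluster (-0.08, SE 0.20, limma adjusted p = 0.899) were also near 0. Over the 9 family members tested, 1 was called higher, beside 5.72% of all miRNAs tested, and the median was 0.05, or -0.08 under median-of-ratios scaling. No test of the difference between miR-429-3p and its family was run. Mir429 lies at chr4:156053905-156053987 on the minus strand, within an exon of the transcript Gm13648 and an intron of Ttll10.

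miR-182-3p is the less abundant arm of a hairpin in the miR-183 cluster, which also holds miR-96 and is known from sensory organs. It stood at 53 and 41 RPM at day 0, 336 and 228 RPM at day 1, 206 and 121 RPM at day 2, and 63 and 83 RPM at day 4. The middle libraries were all above the ends, and day 1 was above day 2 in both treatments. The difference was 1.83 (SE 0.30), with 2.14 against day 0 and 1.52 against day 4 (limma adjusted p = 0.0100 for both ends).

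The other arm of that hairpin, miR-182-5p, stood at 41677 and 35504 RPM at day 0, 41143, 45170, 30437 and 33522 RPM in the middle, and 31199 and 42215 RPM at day 4. Those ranges overlapped throughout (-0.01, SE 0.15, limma adjusted p = 0.987). In the same cluster the 3p arms of miR-183 and miR-96 also had positive differences. miR-183-3p was called against the mean of the ends (1.04, SE 0.33, limma adjusted p = 0.0238), with 94 to 122 RPM in the middle and 33 to 99 RPM at the ends, and miR-96-3p was not (1.31, SE 0.50, limma adjusted p = 0.0864). Their 5p arms had differences of 0.20 and 0.01 and were not called. With median-of-ratios scaling miR-183-3p was no longer called (limma adjusted p = 0.0605). Mir182 lies at chr6:30165918-30165992 on the minus strand, outside other annotated genes.

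miR-145a-5p is known from smooth muscle and for repressing pluripotency factors in human stem cells. It stood at 85 and 30 RPM at day 0, 211 and 149 RPM at day 1, 145 and 138 RPM at day 2, and 17 and 28 RPM at day 4. The middle libraries were all above the ends, with the lowest values at day 4. The difference was 2.21 (SE 0.33), with 1.63 against day 0 and 2.80 against day 4 (limma adjusted p = 0.0108 for both ends). Its other arm, miR-145a-3p, stood at 17 to 42 RPM in the middle and 6 to 19 RPM at the ends and was not called (1.17, SE 0.50, limma adjusted p = 0.136).

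miR-145a is also among markers of fibroblasts and feeder cells. The 15 tested members of that list summed to 25128 to 33179 RPM in the middle libraries and 14081 to 58093 RPM at the ends, none was at 0 in every library, and the median difference was -0.03, or 0.09 when scaled outside the miR-290 cluster. With miR-145a-5p, 2 of the 15 were called higher, beside 5.72% of all miRNAs tested. The other was miR-22-3p (0.61, SE 0.19, limma adjusted p = 0.0207 against the mean of the ends, 1 against both). miR-21a-5p, its most abundant member, stood at 8428 and 14675 RPM at day 0, 19676 to 27007 RPM in the middle, and 36898 and 53151 RPM at day 4. The part of these cells in the result was not tested. In such bulk samples fewer cells of a type and less RNA per cell cannot be told apart.

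miR-128-1-5p comes from the hairpin that also yields miR-128-3p, a miRNA abundant in neurons. It stood at 10 and 3 RPM at day 0, 33 and 44 RPM at day 1, 36 and 23 RPM at day 2, and 0 and 11 RPM at day 4. The middle libraries were all above the ends, at low depth. In reads, the middle days held 30 without Dox and 34 with Dox, against 4 and 1 at day 0 and 0 and 6 at day 4. The difference was 2.83 (SE 0.57, limma adjusted p = 0.0489 for both ends). Without the day 4 library without Dox, which held 0 reads, it was 1.80 and not called (limma adjusted p = 1), and the call was kept in only 2 of the 8 fits that left out 1 library. For the libraries without Dox, the ratio to day 0 was 3.55 (95% interval 1.25 to 13.9), and the interval for the ratio to day 4 began at 3.18. miR-128-3p, which 2 hairpins can yield, stood at 189 and 312 RPM at day 0, 380 to 659 RPM in the middle, and 513 and 482 RPM at day 4, and was not called (0.64, SE 0.23, limma adjusted p = 0.0607). Scaled outside the miR-290 cluster, miR-128-3p was called against the mean of the ends (0.78, limma adjusted p = 0.0109) and miR-128-1-5p was no longer called against both (0.0891). Mir128-1 lies at chr1:128202361-128202430 on the plus strand, in an intron of R3hdm1. Of the 13 tested members of the neural list 2 were called higher against the mean of the ends, beside 5.72% of all miRNAs tested, and their median was 0.56 beside 0.10.

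miR-5099 was the peak whose libraries overlapped. It stood at 2337 and 1487 RPM at day 0, 4689 and 4013 RPM at day 1, 2816 and 2710 RPM at day 2, and 2988 and 1020 RPM at day 4. Day 4 without Dox lay above both day 2 libraries, so without Dox the high value was that of day 1 alone. The difference was 0.94 (SE 0.19, limma adjusted p = 0.0195 for both ends), with 0.46 without Dox and 1.42 with Dox. It is on a list of miRNAs reported to bypass the Microprocessor, of which 16 were tested and 3 were higher against the mean of the ends, beside 5.72% of all miRNAs tested, with a median of 0.20 beside 0.10. Another member of that list, miR-484, stood at 112 and 112 RPM at day 0, 365 RPM at day 1 without Dox, 275 and 283 RPM at day 2, and 201 and 135 RPM at day 4, with all middle libraries above the ends. It was called against the mean of the ends (1.23, SE 0.27, limma adjusted p = 1.70e-04) but not against both (0.176).

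**Figure D3:**
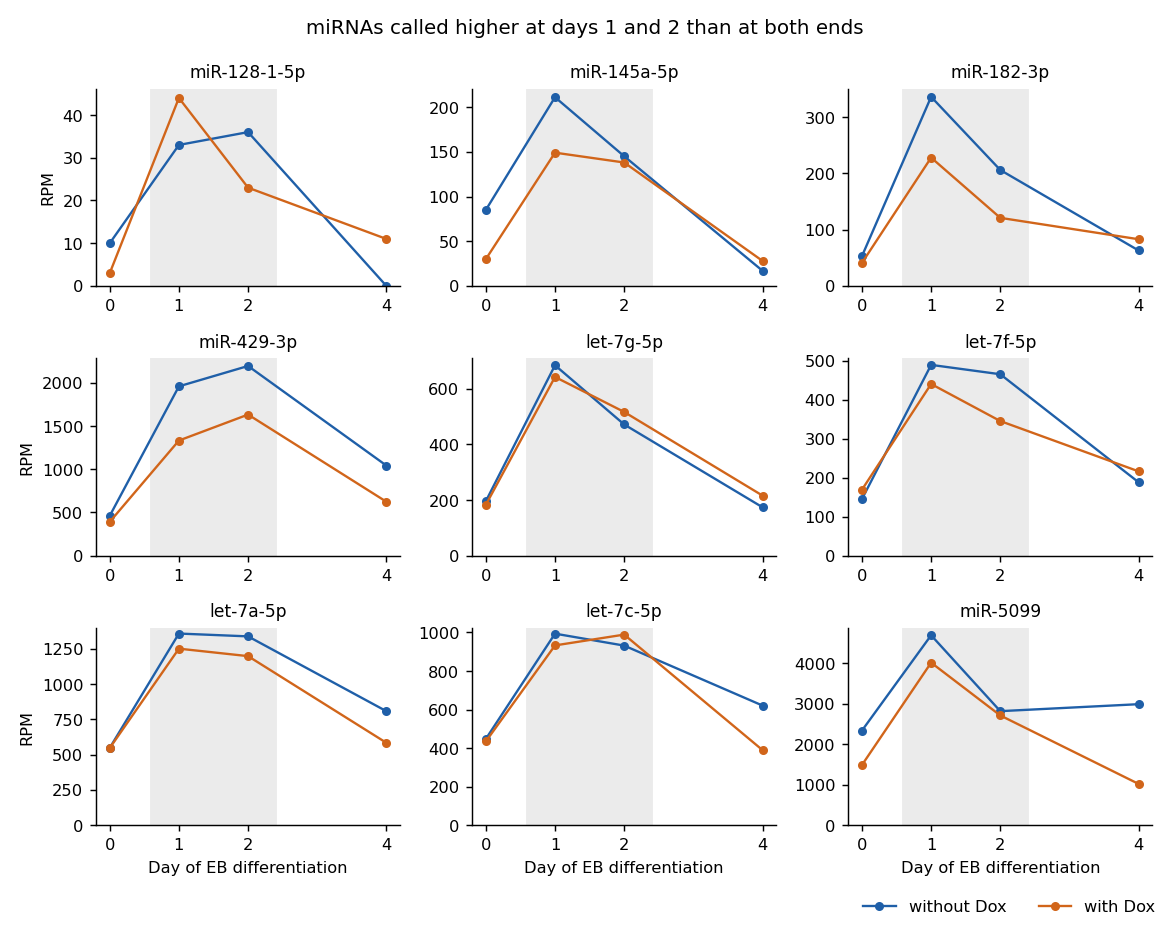
RPM against day of EB differentiation for the 9 peaks, each on its own axis from 0, with 1 library per point, lines joining libraries of the same treatment and days 1 and 2 shaded. In 6 of the 9 panels day 1 is the highest day in both treatments, and miR-5099 is the panel where an end library (2988 RPM) lies above middle ones.

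Further miRNAs had middle libraries all above the ends and were called against the mean of the ends, but not against both. miR-505-3p stood at 2 and 3 RPM at day 0, 20, 17, 14 and 28 RPM in the middle, and 0 in both day 4 libraries. That pattern had a difference of 3.44 (SE 0.74, limma adjusted p = 1.57e-04, and 0.207 for both ends), at levels near the floor of 3 reads. miR-760-3p stood at 2 and 3 RPM at day 0, 69, 42, 40 and 30 RPM in the middle, and 22 and 20 RPM at day 4, so it was far lower at day 0 than at day 4 (2.34, SE 0.49).

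miR-187-3p stood at 24 and 5 RPM at day 0, 58, 60, 100 and 85 RPM in the middle, and 19 and 37 RPM at day 4 (2.02, SE 0.39). Its both-ends limma adjusted p was 0.148. miR-93-3p, the less abundant arm of a miR-17 family hairpin, stood at 32 and 25 RPM at day 0, 116, 54, 74 and 60 RPM in the middle, and 19 and 18 RPM at day 4 (1.62, SE 0.38). miR-130a-3p, of the miR-130 family, stood at 948 and 905 RPM at day 0, 1650, 1362, 1447 and 1655 RPM in the middle, and 968 and 776 RPM at day 4 (0.76, SE 0.20). Neither was called against both ends (limma adjusted p = 0.185 for each). These 5 miRNAs, and miR-290a-3p, miR-22-3p and miR-484, were chosen after their values were seen. let-7e-5p, miR-187-3p and miR-484 were called against both ends when libraries were scaled outside the miR-290 cluster.

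**Figure D4:**
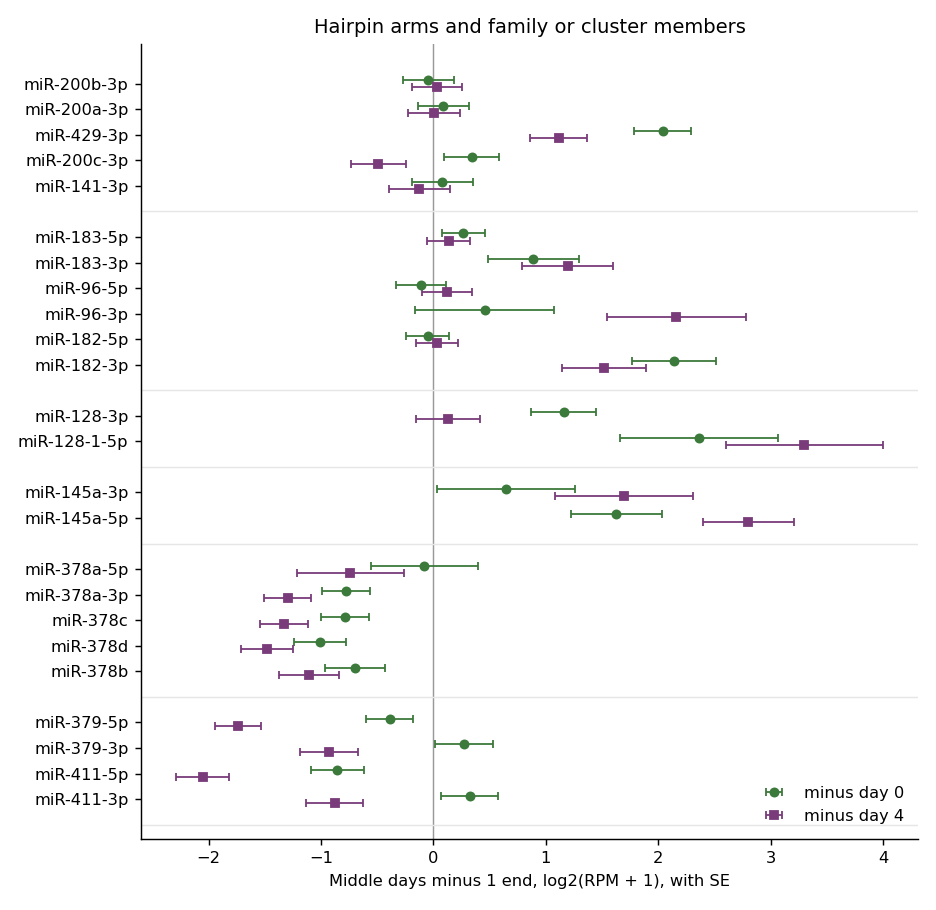
Difference of the middle days from day 0 (circles) and from day 4 (squares) in log2(RPM + 1), with SE bars, for arms of the same hairpin and members of the same family or cluster. miR-429-3p, miR-182-3p and miR-128-1-5p lie right of 0 against both ends while miR-200b-3p and miR-182-5p lie near 0, and miR-411-5p lies left of 0 against both ends while miR-411-3p does so only against day 4.

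The dips were led by miR-411-5p, a miRNA of the maternally expressed cluster in the Dlk1-Dio3 imprinted region. It stood at 2029 and 3430 RPM at day 0, 1116 and 1528 RPM at day 1, 1438 and 1846 RPM at day 2, and 5291 and 6935 RPM at day 4. The middle libraries were all below the ends, with day 4 well above day 0. The difference was -1.45 (SE 0.19), with -0.85 against day 0 and -2.05 against day 4 (limma adjusted p = 0.0252 for both ends).

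miR-411-3p stood at 591 and 782 RPM at day 0, 560, 933, 944 and 1061 RPM in the middle, and 1904 and 1286 RPM at day 4. Its day 4 values were above those of the middle and its day 0 values were not, and it was not called (-0.28, SE 0.21, limma adjusted p = 0.473). miR-379-5p, whose hairpin neighbours that of miR-411, stood at 8872 and 13346 RPM at day 0, 5458 and 6823 RPM at day 1, 11326 and 11246 RPM at day 2, and 26837 and 28559 RPM at day 4. Its low values were those of day 1 alone, and it was called against the mean of the ends (-1.06, SE 0.17, limma adjusted p = 3.83e-08) but not against both (0.959). With median-of-ratios scaling it was called a dip (0.0112).

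Mir411 lies at chr12:109710175-109710256 on the plus strand, outside other annotated genes. Of the 25 tested mature miRNAs from hairpins within 10000 bp, 2 were lower and 0 higher against the mean of the ends, beside 2.98% lower and 5.72% higher of all miRNAs tested. Their median was -0.28 beside 0.10. Over the 97 tested miRNAs of the region, 2 were higher, 6 were lower and 1 was a dip, beside 5.72%, 2.98% and 0.477% of all miRNAs tested. The region's median was 0.53 against day 0 and -1.08 against day 4, beside 0.40 and -0.20 for all. The region's summed level was 65647 and 83412 RPM at day 0, 60674 and 86079 RPM at day 1, 133943 and 120813 RPM at day 2, and 221476 and 211766 RPM at day 4.

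The miR-378 family is known for roles in energy metabolism, and miR-378a lies within Ppargc1b. miR-378d stood at 3197 and 3417 RPM at day 0, 1694 and 1864 RPM at day 1, 1272 and 1816 RPM at day 2, and 4265 and 4940 RPM at day 4. The middle libraries were all below the ends, and day 2 was the lowest day in both treatments. The difference was -1.24 (SE 0.19), with -1.01 against day 0 and -1.48 against day 4 (limma adjusted p = 0.00460 for both ends). Mir378d lies at chr10:126710282-126710391 on the minus strand, outside other annotated genes.

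miR-378a-3p stood at 11106 and 10004 RPM at day 0, 5396 and 6885 RPM at day 1, 5309 and 7206 RPM at day 2, and 14883 and 15293 RPM at day 4. miR-378c stood at 10134 and 8981 RPM at day 0, 4802 and 6194 RPM at day 1, 4856 and 6494 RPM at day 2, and 13763 and 14113 RPM at day 4. The middle libraries of each were all below its ends. The differences were -1.04 (SE 0.17) and -1.06 (SE 0.17), each with a limma adjusted p of 0.0234 for both ends.

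miR-378b was lower against the mean of the ends (-0.90, SE 0.22, limma adjusted p = 0.00105), with 444 to 562 RPM in the middle and 795 to 1167 RPM at the ends, but not against both (0.301). With median-of-ratios scaling it was called a dip (0.0496). The names of this family can share reads, so these are not independent counts. The other arm, miR-378a-5p, stood at 30 to 55 RPM at the ends and 16 to 47 RPM in the middle and was not called (-0.41, SE 0.39, limma adjusted p = 0.586). Mir378c (chr14:46954830-46954928) and Mir378b (chr11:88352773-88352864) lie opposite introns of Samd4 and Msi2.

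Lower values in the middle also appeared for miR-3470a, miR-3470b and miR-6240, which were called against the mean of the ends only. miR-3470a stood at 34 and 33 RPM at day 0, 11, 10, 14 and 9 RPM in the middle, and 52 and 30 RPM at day 4 (-1.66, SE 0.48, limma adjusted p = 0.00934). miR-3470b stood at 46 and 41 RPM at day 0, 22, 25, 21 and 17 RPM in the middle, and 72 and 48 RPM at day 4 (-1.22, SE 0.40, limma adjusted p = 0.0309). Their middle libraries were all below the ends, at low depth. miR-6240 stood at 158 and 180 RPM at day 0, 60, 108, 145 and 136 RPM in the middle, and 497 and 198 RPM at day 4 (-1.11, SE 0.28, limma adjusted p = 0.00264), with the day 4 library without Dox well above the others. Without that library the difference of miR-6240 was -0.70 and the call was lost (limma adjusted p = 0.122).

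**Figure D5:**
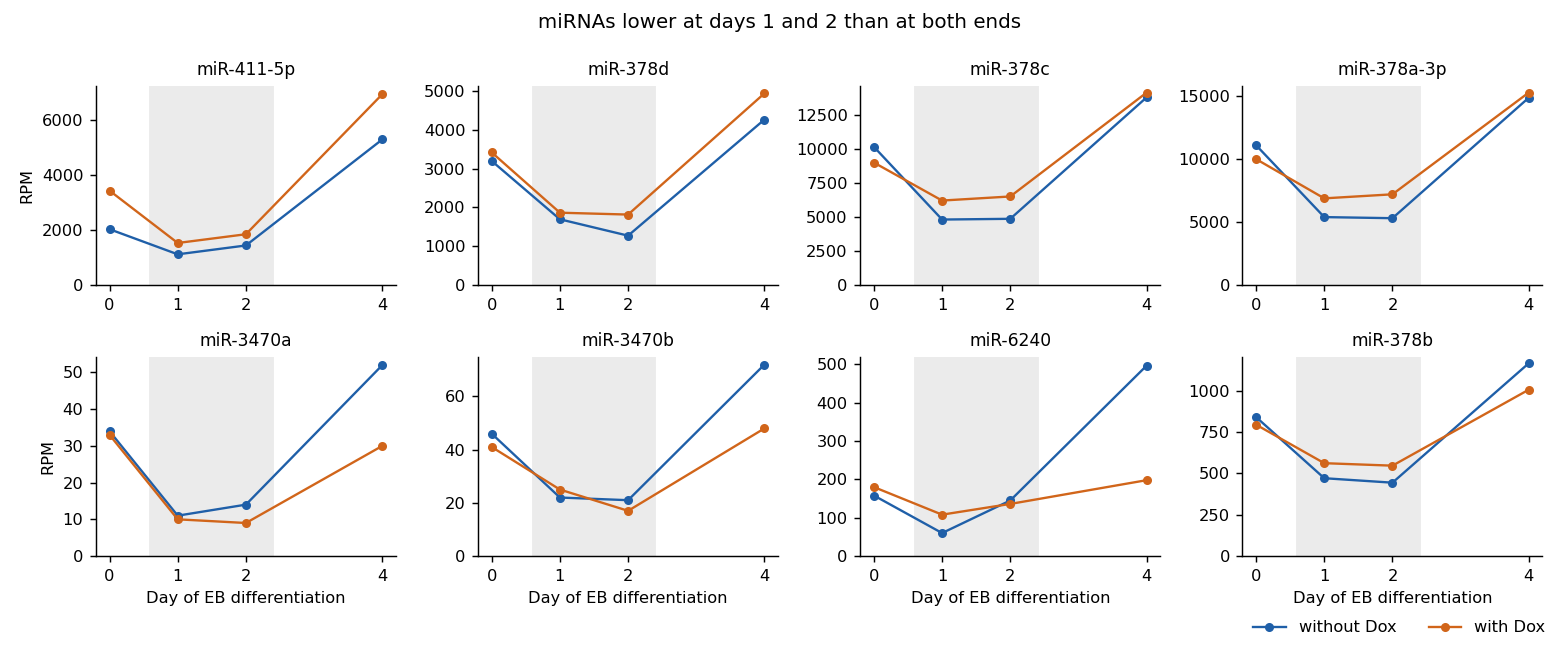
RPM against day of EB differentiation for the 4 dips (upper row) and 4 miRNAs called lower against the mean of the ends only (lower row), each on its own axis from 0, with 1 library per point, lines joining libraries of the same treatment and days 1 and 2 shaded. In each upper panel the 4 middle values lie below the 4 end values, and day 4 is the highest day.

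No effect of Dox on the peaks and dips passed the test. None of the 13 was called for Dox against no Dox in the same fit, which called 16 of the 839 (1.91%). The lowest limma adjusted p was 0.0550 among the peaks (miR-5099, with a Dox difference of -0.62) and 0.213 among the dips. A change of the middle-against-ends difference with Dox was called for 1 of the 839 (0.119%), and for 35 at an unadjusted p under 0.05.

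That miRNA was miR-210-3p, the hypoxia-induced miRNA. It stood at 970 and 93 RPM at day 0, 271 and 106 RPM at day 1, 332 and 136 RPM at day 2, and 988 and 65 RPM at day 4. Without Dox the middle libraries were below both ends, and with Dox all libraries stayed between 65 and 136 RPM, with the middle slightly above the ends. The difference was -1.70 without Dox and 0.62 with Dox, a change of 2.32 (SE 0.51, limma adjusted p = 0.00549). No library could be left out without losing this call: leaving out any 1 of the 8 left 0 calls. For the 13 called miRNAs the limma adjusted p for a change with Dox was 0.883 or higher among the peaks and 1 among the dips.

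The calls against both ends depended on how the spread was estimated. For all except 39 of the 839, limma took the spread wholly from the trend over miRNAs and gave no weight to the miRNA's own 3 residual degrees of freedom. Without the robust option 0 miRNAs were called against both ends (36 at an unadjusted p under 0.05), and 22 against the mean of the ends. Without a term for the single day 0 were called against the mean of the ends (72 at an unadjusted p, lowest limma adjusted p = 0.102). With 1 library left out, the both-ends count was 5 and 2 without the day 0 libraries, 4 and 2 without those of day 1, 0 and 0 without those of day 2, and 11 and 11 without those of day 4. The count against the mean of the ends was 32 without day 1 no Dox, 36 and 19 without the day 2 libraries, and 128 without day 4 Dox. With median-of-ratios scaling 7 of the 13 were still called against both ends: miR-182-3p, miR-429-3p, let-7g-5p and the 4 dips. Scaled outside the miR-290 cluster all except miR-128-1-5p were. By limma-voom 10 of the 13 were called, without miR-128-1-5p, let-7a-5p and let-7f-5p. With 1 library left out, the call was kept in 1 of 8 fits for let-7a-5p, let-7c-5p and let-7f-5p. It held in 2 of 8 for miR-128-1-5p, miR-5099, miR-411-5p, miR-378a-3p and miR-378c. In 3 of 8 it held for miR-145a-5p, miR-182-3p and miR-378d, and in 5 of 8 for miR-429-3p and let-7g-5p. None of the 13 changed direction under any of 19 alternatives. Changing the day term, the robust option or the filter could not change it, as the estimate stays the same. The 13 were also picked for large differences in these same libraries, so the kept direction adds no support.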

How the data were processed

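Total RNA was isolated with TRIzol and made into small RNA libraries with an NEBNext kit, per the labels' protocols. The deposited table holds scores, whole numbers taken here as rounded RPM because every library sums to nearly the same total. The authors' scaling is not stated in its header. Bowtie and mm10 are named per the submitters' processing notes. Versions, the counter, the annotation and the treatment of reads shared between miRNAs: not given in the sources used here. A row naming no miRNA was left out.

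Read totals are the smallest for which every value is a whole number of reads within 0.5 RPM. Larger totals also matched in 5 libraries, within the range of totals searched. In simulation this recovered the true reads of 8 of 8 libraries. The simulated totals were drawn from about the range of the smallest matches, so the case of a larger true total was not simulated.

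The analysis used log2(value + 1) and limma 3.58.1 in R 4.3.3 (day as a factor plus treatment, mean-variance trend, robust prior), with Benjamini-Hochberg adjustment over 839 miRNAs at 0.05. The script was tested on simulated data. The change with Dox added a treatment by middle-day term, leaving 2 residual degrees of freedom. Python 3.11.15 was used for reads and sequences. The plan named another test in case the table held raw counts, and that test was not used.

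Named miRNAs were calls against both ends with a mean of at least 10 RPM, up to 12 a direction by size and the 3 most abundant. Where a direction had fewer than 8, calls against the mean of the ends with libraries that did not overlap followed, up to 8, and then up to 6 calls for a change with Dox. Members and lists were chosen with earlier results of these data known. Alternatives changed the model, prior, test (limma-voom on the reads), pseudocount (0.5, 5), filter, scaling and libraries. Mature sequences matched 926 of 1099 names, and 14 of the 18 named. Genes at hairpins are from the GENCODE annotation of GRCm38.p6.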

Additional observations from a re-analysis of the deposited data

Results flagged for a closer look

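Among the end libraries of let-7a-5p, day 4 without Dox stood apart at 808 RPM, where the others were at 548, 547 and 584 RPM. The gap to the nearest of them was 0.832 of the whole range, just above Dixon's 95% critical value for 4 values. Of the 36 groups of 4 libraries examined in this way, 1 stood apart, and chance alone gives about 1 in 20.

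The middle-against-ends difference of miR-210-3p changed with Dox by 2.32 on the log2 scale (limma adjusted p = 0.00549). It was -1.70 without Dox and 0.62 with Dox.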

How the results depend on the processing

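The main counts were 73 against the mean of the ends, 13 against both ends, 134 against day 0, 158 against day 4 and 1 for a change with Dox. Without a term for the single day, the first and last became 0 and 0. That fit has no both-ends test. Its stand-in, a call against the mean of the ends with libraries that do not overlap, could then only be 0. Without the robust option the 5 counts became 22, 0, 47, 77 and 0. Without the day 1 pair the counts against the ends, both ends and day 4 and for a change with Dox became 28, 0, 58 and 0. Without the day 2 pair those against the ends, both ends and day 0 became 32, 0 and 27. By limma-voom there were 5 calls for a change with Dox. Leaving out 1 library gave 19 to 128 against the mean of the ends, 0 to 11 against both ends, 25 to 176 against day 0, 90 to 160 against day 4, and 0 throughout for a change with Dox. Other alternatives kept each count within 1.5 times.

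Under median-of-ratios scaling 9 miRNAs were called against both ends, 3 peaks and 6 dips, 7 of them among the 13. Scaled outside the miR-290 cluster there were 11 peaks and 4 dips, 12 of them among the 13, and 78 higher and 20 lower against the mean of the ends. Against day 0 the split was 121 higher and 13 lower, and 51 and 50 with median-of-ratios scaling. Against day 4 it was 56 higher and 102 lower. Median-of-ratios scaling gave 67 and 76 there, and scaling without the miR-290 cluster gave 94 and 53. Of 342 values of the named miRNAs under alternatives, 158 kept their call, 184 lost it and 0 reversed. The losses of both-ends calls include those by the stand-in of the fit without a term for the single day. The values without Dox and with Dox, 34 in all, reversed in 0 cases, and 12 differed from the main value by its SE or more. The main value averages both treatments, and these miRNAs were picked for large differences, so a reversal was unlikely from the outset. Depth limits the miRNAs of few reads, among them miR-128-1-5p, miR-3470a, miR-3470b, miR-98-5p and miR-505-3p. No paired analysis was possible because each condition has 1 library with the same replicate number, so the numbers pair nothing beyond the day already in the model.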

Other observations

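Several of the higher miRNAs were the less abundant arm of their hairpin, which was looked at over all hairpins after these values were seen. In 112 hairpins both arms were tested, the less abundant arm had a mean of at least 10 RPM and the other at least 2 times that mean. The middle-against-ends difference of the less abundant arm was above that of the other arm in 73 of the 112. The medians were 0.22 for less abundant arms and 0.02 for more abundant arms. Of the less abundant arms 10 were called higher and 2 lower, and of the more abundant arms 6 were higher and 7 lower. Over all miRNAs tested the shares were 5.72% higher and 2.98% lower. Those shares are too low a yardstick here, as they include 340 miRNAs with a mean below 10 RPM, 2 called higher and 0 lower. Calls higher and lower numbered 17 and 9 of the 228 miRNAs at 10 to 100 RPM. They numbered 19 and 7 of the 168 at 100 to 1000 RPM, and 10 and 9 of the 103 above 1000 RPM. Among all miRNAs tested, the median was 0.14 for those with a mean of 10 to 100 RPM, 0.15 for 100 to 1000 RPM and 0.05 above 1000 RPM, so the median differed with level too. By an arm's own level, the median at 10 to 100 RPM was 0.21 for 80 less abundant arms and -0.15 for 10 more abundant ones. At 100 to 1000 RPM it was 0.25 for 26 and 0.06 for 44, and above 1000 RPM 0.01 for 6 and 0.04 for 58. The part of level in the contrast between arms was not tested, and arms of the same hairpin are not independent of each other. The 112 hairpins are not all distinct measurements either. miR-466b-3p and miR-466c-3p had the same mean and difference, as did miR-669a-3p and miR-669o-3p.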
